A study of Mus musculus with 2 samples.

Results

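The cyclins, cyclin-dependent kinases (CDKs), CDK inhibitors, E2F factors and retinoblastoma family genes were examined in MIN6, an insulinoma line of the mouse that stands in for beta cells of the pancreas. The genes were taken by symbol from the deposited counts: cyclins whose symbol is Ccn with a letter and at most 1 digit, CDKs whose symbol is Cdk with a number alone, the INK4 and CIP/KIP inhibitors, the E2F genes, and Rb1, Rbl1 and Rbl2. The rule gave 60 of 27179 gene rows and leaves out symbols with further letters. Both groups carried adenovirus, given at a multiplicity of infection (MOI) of 100, and their RNA was extracted between 72 and 96 h afterwards. The library C2cd4a-GFP comes from cells with a fusion of C2cd4a and green fluorescent protein, and the library Control-GFP from cells with the control construct, although both samples' treatment notes mention the fusion. Each group had 1 library, so no comparison here has a replicate check.

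Cyclins activate CDKs, and the pairs drive the cell through division. D cyclins with CDK4 or CDK6, and then E cyclins with CDK2, phosphorylate the pocket proteins of the retinoblastoma family, which releases E2F factors to transcribe genes of DNA replication. INK4 inhibitors block CDK4 and CDK6, and CIP/KIP inhibitors act more widely. Adult beta cells divide rarely. MIN6 cells were derived from a tumor driven by the SV40 T antigen under an insulin promoter, a viral protein that binds the pocket proteins and p53.

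The libraries held 30164106 (C2cd4a-GFP) and 31039999 (Control-GFP) counts. C2cd4a itself had 49238 and 133 counts, so the labels fit the overexpressed gene. The beta-cell markers Ins2 (57072 and 65490 CPM, read counts scaled to library depth with TMM factors) and Iapp (16339 and 17266 CPM) were abundant in both. Of the 8 beta-cell markers listed, Ins1 (log2 fold change -0.67) and Slc2a2 (-0.81) fell and Neurod1 (0.42) rose in the authors' deposited table, and the summed level was 75984 and 86914 CPM. Ptf1a, Krt19, Sox9, Cdh5 and Col3a1, which define other cell types, were at 0 counts in both. The summed level of 3 alpha-cell markers was 665 CPM in C2cd4a-GFP and 546 CPM in Control-GFP, most of it Ttr. The summed level of 6 acinar markers was 12.5 and 4.12 CPM, and that of 4 ductal markers 41.1 and 53.0 CPM. The part of these markers in the results was not tested. In bulk RNA, fewer cells that express a gene and less RNA per cell cannot be told apart.

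Of the 60 genes, 56 reached a mean of 1 CPM and were compared. The 4 below it were Cdk6 with 0 counts in both libraries, Ccna1 with 0 and 1, Ccnd1 with 2 and 1, and Ccnb3 with 12 and 16 (C2cd4a-GFP given first here and throughout). A count of 0 allows up to 0.098 CPM. At this depth the D-cyclin pathway of these cells was therefore read from Ccnd2, Ccnd3 and Cdk4. Ccnj, at a mean of 2.32 CPM, was the least abundant gene that was compared.

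Few of the regulators differed by much, and they differed in both directions. Ccnd2, Ccng1 and Cdk14 were the 3 genes called higher by size in the C2cd4a-GFP library, at a ratio of at least 1.5 with equal levels outside the counting interval, and 0 were called lower. Called genes made up 5.36% of the 56, against 4.23% of all 12759 genes of at least 1 CPM that were called higher and 4.23% called lower. In the authors' deposited table, 6 of 57 regulators with an adjusted p rose at a threshold of 0.05 (10.5%) and 5 fell (8.77%), against 7.00% of 14619 genes rising and 6.58% falling. These shares lie near the background in the rising and the falling direction alike. The median log2 ratio of the 56 genes was 0.07, with 32 above equality and 24 below. That of all 12759 genes was -0.01, with 6273 above and 6486 below. In 39 of the 56 the larger level was less than 25% above the smaller one, a count that is not given for all genes.

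**Figure D1:**
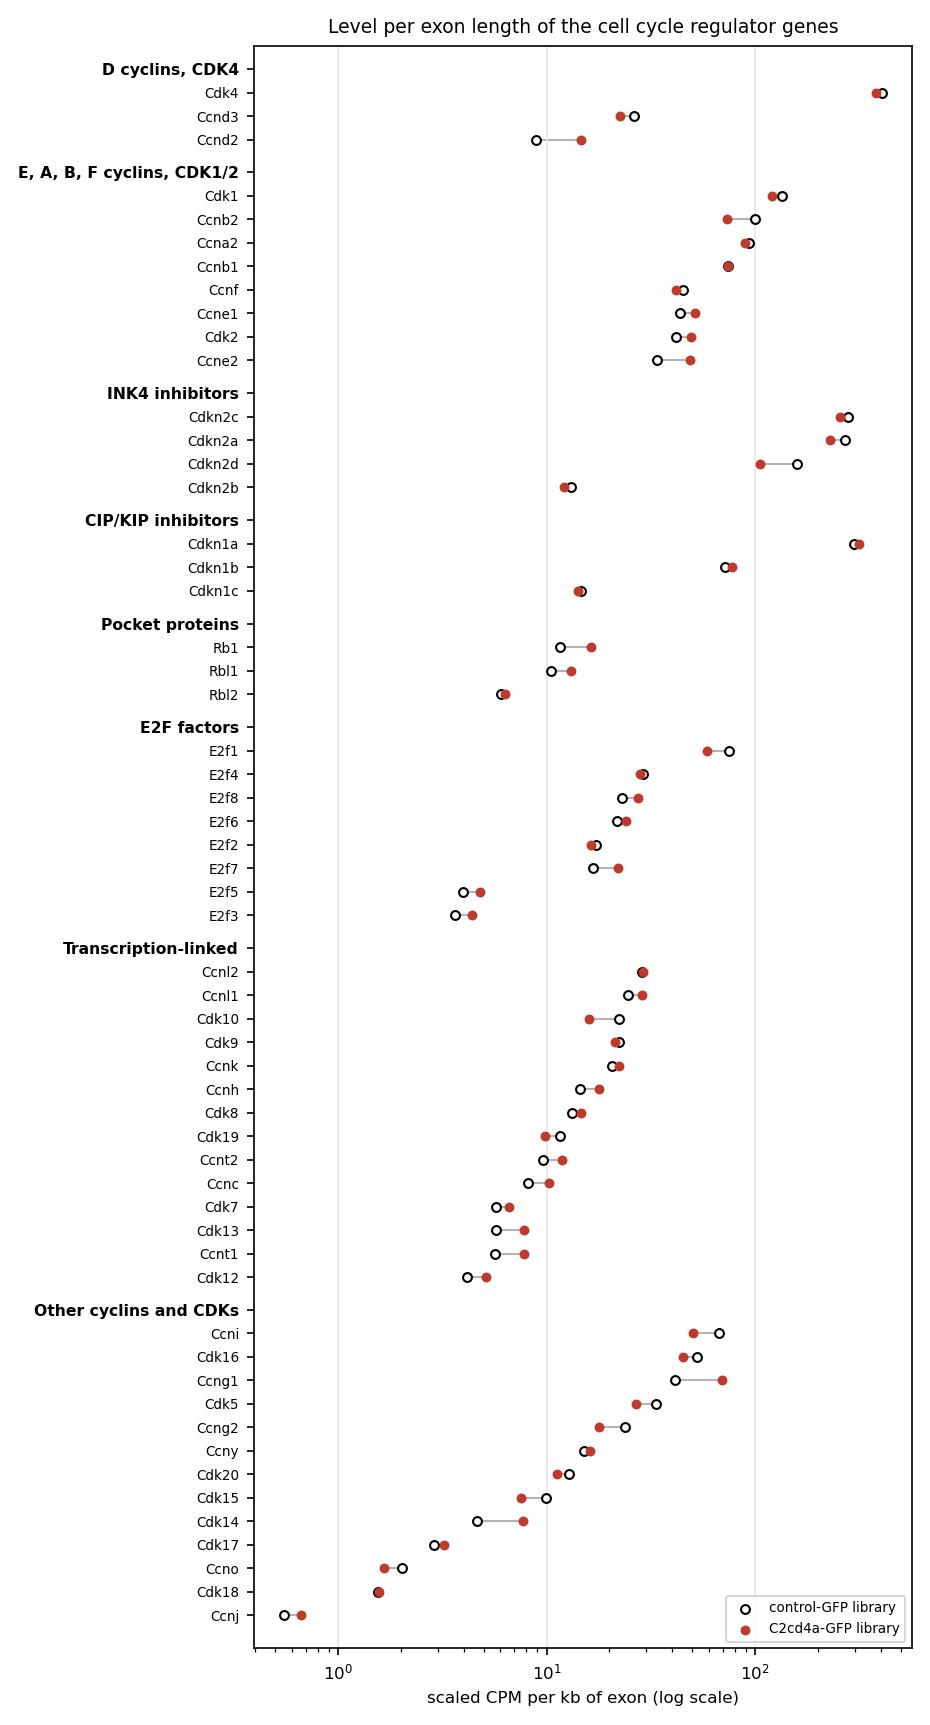
Level of each of the 56 compared genes in scaled CPM per kb of exon (log axis), by role, with open circles for the Control-GFP library and filled circles for the C2cd4a-GFP library. Cdk4 (406 in the control) and Cdkn1a lie at the top of the range and Ccnj (0.548) at the bottom, and the distance between the circles of a gene is small beside the range between genes.

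The promoters of 4 genes are shown, which rose (Rbl1, Ccng1) or fell (Ccnb2, Cdkn2d) in the authors' deposited table. They are the 250 bases before the RefSeq start of each gene in GRCm38.p6, which matches the 5′ end of the gene in the counts table, written on the gene's strand. Capitals mark matches, on either strand, to E2F sites (TTTCCCGC, TTTGGCGC, TTTCGCGC or TTTGCCGC), to the cell cycle homology region (CHR, TTTGAA) and to the CCAAT box (CCAAT).
Rbl1, chr2:157204535-157204784, minus strand: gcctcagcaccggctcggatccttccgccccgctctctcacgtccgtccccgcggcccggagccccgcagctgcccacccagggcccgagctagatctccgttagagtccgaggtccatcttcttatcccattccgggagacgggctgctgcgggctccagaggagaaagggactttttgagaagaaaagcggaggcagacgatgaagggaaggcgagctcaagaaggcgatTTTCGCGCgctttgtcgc
Ccng1, chr11:40755287-40755536, minus strand: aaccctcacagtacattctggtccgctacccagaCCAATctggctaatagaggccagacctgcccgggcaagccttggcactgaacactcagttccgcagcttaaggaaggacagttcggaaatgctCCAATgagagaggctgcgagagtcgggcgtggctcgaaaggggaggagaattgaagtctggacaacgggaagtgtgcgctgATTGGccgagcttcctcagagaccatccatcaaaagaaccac
Ccnb2, chr9:70421555-70421804, minus strand: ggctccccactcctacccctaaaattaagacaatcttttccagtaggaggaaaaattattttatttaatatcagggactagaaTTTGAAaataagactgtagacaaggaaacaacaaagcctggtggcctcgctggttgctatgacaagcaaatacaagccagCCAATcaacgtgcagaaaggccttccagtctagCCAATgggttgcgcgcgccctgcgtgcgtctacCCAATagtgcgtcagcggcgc
Cdkn2d, chr9:21291210-21291459, minus strand: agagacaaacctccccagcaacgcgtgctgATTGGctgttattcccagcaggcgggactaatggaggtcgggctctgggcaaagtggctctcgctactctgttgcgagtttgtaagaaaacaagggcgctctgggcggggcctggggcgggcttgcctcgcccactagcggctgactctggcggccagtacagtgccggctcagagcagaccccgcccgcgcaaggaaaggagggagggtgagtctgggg

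Rbl1 has its E2F match 18 bases before the start, and Ccnb2 has CCAAT boxes 87, 54 and 21 bases before it. A promoter entry was found for 47 of the 60 genes. An E2F match was present in 6 of the 47 (Cdk1, Cdk2, Cdkn2a, E2f3, E2f7 and Rbl1), which is 12.8%, against 2.16% of 27025 genes with an entry. The CHR was present in 21.3% of the 47 against 18.3%, and the CCAAT box in 48.9% against 37.5%. Of the 8 genes called in the authors' deposited table that had an entry, E2f1 among them, only Rbl1 held an E2F match in the window searched. The E2f1 entry starts 426 bases inside the gene as counted and is not shown. Its window lies within the gene, so the bases before E2f1 were not searched and its lack of a match does not describe them. Ccni, Cdk14 and Cdk15 are not shown either. Ccni had CHR matches 137 and 92 bases before its start, and Cdk14 and Cdk15 had no match to any of the motifs. The genes without an entry were Ccna2, Ccnd1, Ccnd2, Ccne2, Ccnh, Ccny, Cdk5, Cdk17, Cdk19, Cdkn1c, E2f4, E2f5 and Rb1. A match describes letters in this window only.

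Among the D cyclins and their kinase, the level of Ccnd2 was higher and those of Ccnd3 and Cdk4 were slightly lower with C2cd4a-GFP. Ccnd2, the D cyclin that mouse beta cells need for growth after birth (gene ID 12444, mm10 chromosome 6, 127125708 to 127151048), had 2576 counts against 1571. That is 84.1 against 51.4 CPM, 1.64-fold higher, or 0.71 on the log2 scale (95% exact counting interval 0.62 to 0.80). Ccnd2 rose by 0.55 (log2) in the authors' deposited table (DESeq2 adjusted p = 0.0275). Ccnd3 had 1556 against 1817 counts (50.8 and 59.4 CPM), a log2 ratio of -0.23 (-0.32 to -0.13). Cdk4, the kinase partner that mouse beta cells depend on, had 15632 against 16705 counts (511 and 546 CPM), a log2 ratio of -0.10 (-0.13 to -0.07) that turned to 0.11 once its trends over transcript length and GC content (given with the plot of these) were removed. Neither Ccnd3 nor Cdk4 passed in the authors' deposited table.

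The makeup of the D cyclins therefore differed between the libraries. Ccnd2 gave 62.3% (60.8 to 63.8, exact Clopper-Pearson interval) of all D-cyclin counts in C2cd4a-GFP and 46.4% (44.7 to 48.1) in Control-GFP. Its transcript is longer than that of Ccnd3, and per kb of exon its share was 39.3% and 25.3%, so Ccnd3 stood above Ccnd2 per length in both libraries. Cdk4 was at 379 and 406 CPM per kb, far above either cyclin. Ccnd3 shares 15.9% of its exon bases with Bysl on the opposite strand. Reads of Bysl may therefore be counted in Ccnd3 if strand was not used. Without the length and GC trends the log2 ratio of Ccnd3 was -0.01 and that of Ccnd2 0.53.

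Among the cyclins of replication and mitosis and their kinases, Ccne2 rose and Ccnb2 fell in the authors' deposited table, and the others were not called there. Ccne2, an E cyclin of the start of replication (gene ID 12448, chromosome 4, 11191354 to 11204779) had 4794 counts against 3344, or 157 against 109 CPM, and a log2 ratio of 0.52 (0.45 to 0.58). It rose by 0.58 in the authors' deposited table (DESeq2 adjusted p = 0.0102). Its exons share 53.9% of their bases with Ints8 on the opposite strand, so reads of Ints8 may be counted in it if strand was not used. Ccne1, the other E cyclin, was at 0.24 (0.17 to 0.32) and their kinase Cdk2 at 0.23 (0.16 to 0.30), and neither passed in the authors' deposited table.

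Ccnb2, a mitotic partner of CDK1 (gene ID 12442, chromosome 9, 70407689 to 70421554), had 3467 counts against 4684, or 113 against 153 CPM, and a log2 ratio of -0.44 (-0.50 to -0.37). It fell by 0.42 in the authors' deposited table (DESeq2 adjusted p = 3.9e-05), the smallest adjusted p of the regulators that fell. Its paralog Ccnb1 was level, with 5278 against 5249 counts (log2 ratio 0.01, -0.05 to 0.06). Ccnb2 thus made up 39.7% (38.6 to 40.7) of the counts of both genes in C2cd4a-GFP and 47.2% (46.2 to 48.1) in Control-GFP. Cdk1, the mitotic kinase, had 10502 against 11813 counts (343 and 386 CPM), log2 ratio -0.17 (-0.21 to -0.13). Ccna2, a partner of CDK2 and CDK1, was at -0.08 and Ccnf, an F-box protein of a ubiquitin ligase, at -0.11.

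The INK4 inhibitors all had a ratio below 1, and Cdkn2d was the lowest of the 56 genes. Cdkn2d, which encodes p19INK4d (gene ID 12581, chromosome 9, 21288463 to 21291209), had 4115 counts against 6143, or 134 against 201 CPM. Its log2 ratio was -0.58 (-0.64 to -0.52), 1.49-fold lower and just short of the size rule. It fell by 0.43 in the authors' deposited table (DESeq2 adjusted p = 0.0156). Cdkn2a, whose counts add the transcripts for p16INK4a and p19ARF, had 7904 against 9403 counts (258 and 307 CPM), a log2 ratio of -0.25 (-0.30 to -0.21). The RefSeq starts of these transcripts lie 12427 bases apart, and gene counts do not separate them. Cdkn2c had 8668 against 9436 counts (283 and 309 CPM), a log2 ratio of -0.12 (-0.17 to -0.08). Cdkn2b was at -0.12 (-0.29 to 0.06).

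In the authors' deposited table the other 3 INK4 genes did not pass, with log2 fold changes of -0.06 for Cdkn2a, -0.07 for Cdkn2c and -0.18 for Cdkn2b. These are short, GC-rich transcripts. Once the length and GC trends were removed, Cdkn2d was at -0.32 and the median of the 4 genes moved from -0.19 to 0.11, so the direction of the group turned.

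None of the 3 CIP/KIP inhibitors was called by size or in the authors' deposited table. Their median log2 ratio was 0.08, and 0.24 without the length and GC trends (0.27 for Cdkn1a). Cdkn1a, the p53 target that encodes p21, had 19478 against 18362 counts, or 636 against 600 CPM, the highest CPM of the 56 genes in both libraries. Its log2 ratio was 0.08 (0.05 to 0.11). Mdm2, the negative regulator of p53 and another of its targets, had 8757 against 4252 counts, a difference of 1.04 on the log2 scale. In the authors' deposited table Mdm2 rose by 0.98 (DESeq2 adjusted p = 2.83e-11), whereas Cdkn1a missed the threshold (0.13, adjusted p = 0.442). Cdkn1b, which encodes p27, had 5701 against 5272 counts (186 and 172 CPM), a log2 ratio of 0.11 (0.06 to 0.17). Cdkn1c, an imprinted inhibitor, was at -0.03 (-0.17 to 0.10), against 0.28 in the authors' deposited table, where it missed the threshold.

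Pocket protein genes had ratios above 1, and Rb1 and Rbl1 rose. Rb1, the retinoblastoma protein gene (gene ID 19645, chromosome 14, 73195502 to 73325791), had 2317 counts against 1631, or 75.7 against 53.3 CPM. Its log2 ratio was 0.50 (0.41 to 0.60), and it rose by 0.46 in the authors' deposited table (DESeq2 adjusted p = 0.00246). Rbl1, which encodes p107 (gene ID 19650, chromosome 2, 157145893 to 157204534), had 2167 counts against 1740 (70.8 and 56.9 CPM), a log2 ratio of 0.31 (0.22 to 0.41). It rose by 0.28 in the authors' deposited table (DESeq2 adjusted p = 0.0289), the largest adjusted p among the 6 regulators that rose. Rbl2, which encodes p130, was at 0.06 (-0.07 to 0.20). Both genes that rose are long and low in GC, and without the length and GC trends Rb1 was at 0.25 and Rbl1 at 0.05.

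Of the 8 E2F genes, E2f1 fell and the others were not called in the authors' deposited table. E2f1, which activates replication genes when free of pocket proteins (gene ID 13555, chromosome 2, 154559639 to 154569852), had 4428 counts against 5632, or 145 against 184 CPM. Its log2 ratio was -0.35 (-0.41 to -0.29), and it fell by 0.35 in the authors' deposited table (DESeq2 adjusted p = 0.00602). The other activators were E2f2 at -0.08 and E2f3 at 0.27 (0.11 to 0.43), and E2f1 gave 59.3% (58.1 to 60.4) of the counts of these 3 genes in C2cd4a-GFP and 64.8% (63.8 to 65.8) in Control-GFP. E2f7, a repressor that binds DNA without a dimer partner, had 3703 against 2785 counts (121 and 91.1 CPM), a log2 ratio of 0.41 (0.34 to 0.48). E2f7 lay just outside the threshold in the authors' deposited table (0.41, DESeq2 adjusted p = 0.0573). E2f8, its close relative, was at 0.26 (0.19 to 0.34).

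The remaining E2F genes were not called either. E2f4, the main partner of pocket proteins in resting cells, had 1714 against 1760 counts (56.0 and 57.6 CPM), a log2 ratio of -0.04 (-0.14 to 0.06). E2f5, with a like role, was at 0.28 (0.01 to 0.55) and E2f6, a repressor that lacks the pocket-binding domain, at 0.15 (0.05 to 0.25). Without the length and GC trends E2f1 was at -0.12 and E2f7 at 0.31.

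**Figure D2:**
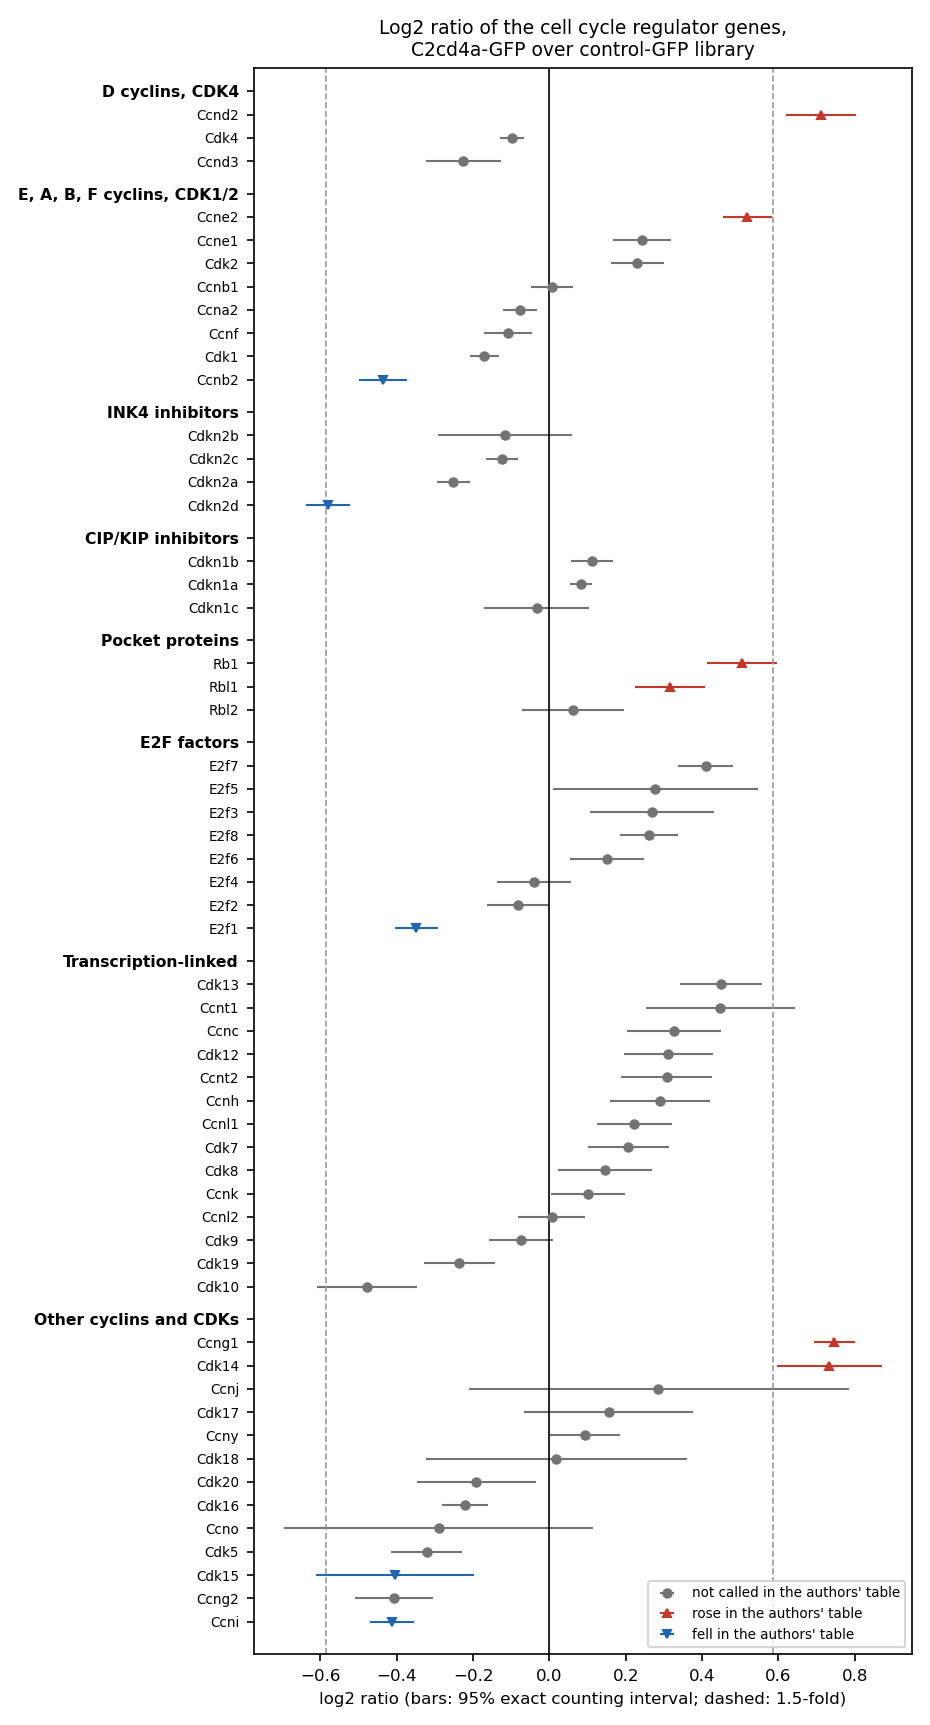
Log2 ratio of C2cd4a-GFP over Control-GFP for each of the 56 compared genes, by role, with 95% exact counting intervals as bars and dashed lines at a 1.5-fold difference. Triangles mark genes called in the authors' deposited table (6 rising, 5 falling). Ccng1, Cdk14 and Ccnd2 are those whose ratio lies beyond the right dashed line.

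Cyclins and CDKs tied to transcription lay mostly above equality, by small amounts. Of 14 such genes, 11 had a ratio above 1, the median log2 ratio was 0.21, and 0 were called in the authors' deposited table. The elongation kinases Cdk13 (0.45, 0.34 to 0.56) and Cdk12 (0.31) and their cyclin Ccnk (0.10) were all above 1. Of the elongation factor P-TEFb, the cyclins Ccnt1 (0.45, 0.25 to 0.64) and Ccnt2 (0.31) were above 1 and the kinase Cdk9 was at -0.07. The Mediator cyclin Ccnc was at 0.33 and its kinases Cdk8 at 0.15 and Cdk19 at -0.24. Ccnh and Cdk7, which activate other CDKs and belong to the transcription factor TFIIH, were at 0.29 and 0.21.

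Ccnl2 and Ccnl1, cyclins tied to splicing, were the most abundant of this group per length. Ccnl2 had 2160 against 2149 counts (70.5 and 70.3 CPM), a log2 ratio of 0.01 (-0.08 to 0.09), and shares 41.5% of its exon bases with an unnamed gene on the opposite strand. Ccnl1 had 1874 against 1604 counts (61.2 and 52.5 CPM), a log2 ratio of 0.22 (0.13 to 0.32). Cdk10 was the lowest, at -0.48 (-0.61 to -0.35). Without the length and GC trends the median of the 14 genes was 0.05.

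Ccng1 and Cdk14, outside the core of the cycle, had the largest ratios. That of Ccnd2 (0.71, 0.62 to 0.80) was close, and their counting intervals overlapped. Ccng1, cyclin G1, a p53 target without an activating role in division (gene ID 12450, chromosome 11, 40748552 to 40755286), had 7382 counts against 4396, or 241 against 144 CPM. It was 1.68-fold higher, with a log2 ratio of 0.75 (0.69 to 0.80), and rose by 0.65 in the authors' deposited table (DESeq2 adjusted p = 3.86e-06). Its paralog Ccng2, a cyclin of resting cells, went the other way, at -0.41 (-0.51 to -0.31), but missed the threshold in the authors' deposited table (-0.28, DESeq2 adjusted p = 0.153).

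Cdk14, a kinase that pairs with cyclin Y at the cell membrane (gene ID 18647, chromosome 5, 4803385 to 5380251), had 1157 counts against 695, or 37.8 against 22.7 CPM. It was 1.66-fold higher, with a log2 ratio of 0.73 (0.60 to 0.87), and rose by 0.75 in the authors' deposited table (DESeq2 adjusted p = 0.000141). The cyclin Y gene Ccny was at 0.09, and Cdk16, another kinase activated by cyclin Y, at -0.22 (-0.28 to -0.16). The partner and this other kinase of cyclin Y therefore did not share the ratio of Cdk14.

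Ccni and Cdk15 fell. Ccni, cyclin I (gene ID 12453, chromosome 5, 93181933 to 93206495), had 4320 counts against 5745 (141 and 188 CPM), a log2 ratio of -0.41 (-0.47 to -0.36). It fell by 0.46 in the authors' deposited table (DESeq2 adjusted p = 0.00146). Cdk15 (gene ID 271697, chromosome 1, 59256907 to 59352369) had 339 counts against 448 (11.1 and 14.6 CPM), a log2 ratio of -0.40 (-0.61 to -0.20). It fell by 0.39 in the authors' deposited table (DESeq2 adjusted p = 0.0268). Of the others, Cdk5, a kinase best known in neurons, was at -0.32 (-0.42 to -0.23), and Cdk20 at -0.19, Cdk17 at 0.15 and Cdk18 at 0.02. The least abundant, Ccno (95 against 116 counts) and Ccnj (78 against 64), had intervals that included equal levels.

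The calls went together with the length of the transcripts, and those of genes that rose also with low GC content. The median GC content of the genes that fell was close to that of all genes. The 6 regulators that rose have summed exon lengths of 3217 to 5772 bases, and the 5 that fell of 1271 to 2804 bases. Their median GC content was 41.7% and 49.3%. All genes of at least 1 CPM had medians of 2877 bases and, where known, 49.9% GC. The lengths of all genes that rose or fell were not compared, so these ranges are not a trait of the regulators. Across the 56 genes, Spearman's rho of the log2 ratio was 0.562 with exon length and -0.597 with GC content, and across all genes of at least 1 CPM it was 0.332 and -0.471. These are descriptions across genes of 1 pair of libraries, and genes are not independent replicates. With the length trend removed, Cdk14 was at 0.64, Ccng1 at 0.72 and Ccnd2 at 0.59, the last only just past 1.5-fold. With the length and GC trends removed they were at 0.52, 0.54 and 0.53, under 1.5-fold, and Ccne2 was at 0.25. Then 0 of the 56 genes met the size rule. Of 12216 compared genes with a GC value, 380 were called higher and 315 lower in that setting. All 11 called regulators kept their direction in both cases.

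**Figure D3:**
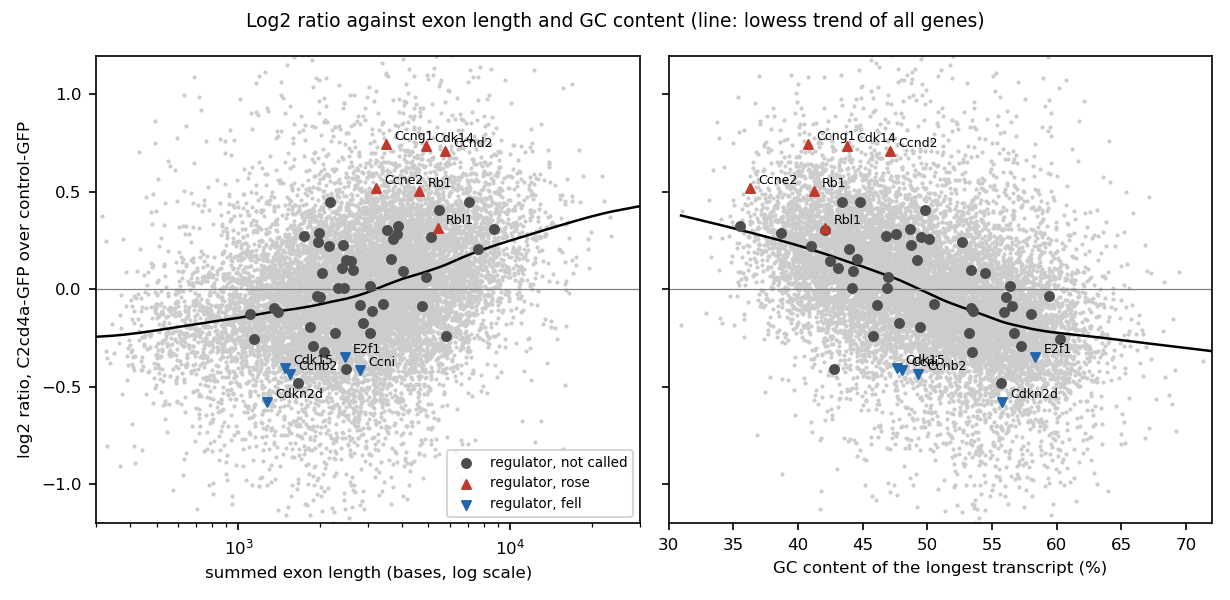
Log2 ratio of C2cd4a-GFP over Control-GFP against summed exon length (left, log axis) and GC content of the longest transcript (right), with all genes of at least 1 CPM as pale points, the 56 regulators as large symbols and the lowess trend of all genes as a line (a few genes lie beyond the axes). Regulators that rose lie at 3217 to 5772 bases and those that fell at 1271 to 2804 bases.

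Other lists of cell cycle genes also had medians close to equality. In some of them the share of called genes was above that of all genes, which was not tested. Of 28 replication genes, many of them E2F targets, 4 passed the threshold in the authors' deposited table (3 rising, 1 falling; 7.00% and 6.58% of all genes), and the median log2 ratio was 0.01 (0.06 without the length and GC trends). Pola1, the catalytic subunit of the polymerase that starts DNA synthesis, was the 1 gene called higher by size, with 2862 against 1899 counts (log2 ratio 0.59, 0.51 to 0.67). Pola1 rose by 0.48, Pcna by 0.32 and Gins1 by 0.38, and Fen1 fell by 0.26, all as log2 fold changes of the authors' deposited table. Of 25 mitotic genes, 1 rose in the authors' deposited table (Ckap2, 0.34), against 7.00% of all genes, and 4 fell, against 6.58%. The share that fell was above that of all genes. The 4 were Ube2c (-0.43), Aurkb (-0.32), Bub1b (-0.27) and Birc5 (-0.24), again the authors' log2 fold changes from their deposited table. The median log2 ratio of the list was 0.01, and -0.13 without the length and GC trends, so its sign turned. The most abundant, Top2a and Mki67, had log2 ratios of 0.03 and 0.29 and were not called by the authors.

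Of 28 genes that regulate CDKs, 2 passed in the authors' deposited table (1 rising, 1 falling), against 7.00% and 6.58% of all genes. The median log2 ratio of the 28 was -0.01 (0.07 without the trends). Trib2, a pseudokinase, had 726 against 444 counts (log2 ratio 0.71, 0.54 to 0.88) and rose, and Cdc37, a chaperone that loads kinases such as CDK4 onto HSP90, had 7939 against 10965 counts (log2 ratio -0.47) and fell. A list of 13 genes held E2F partners and subunits of the DREAM repressor complex, which pocket proteins form with E2F. It also held linked factors that are not subunits of this complex, such as Foxm1 and Hdac1. In the authors' deposited table Lin54 (0.46) and Lin52 (0.31) rose and 0 fell, against 7.00% and 6.58% of all genes. The list's median log2 ratio was 0.01 (-0.04 without the trends). The most abundant of the list, Rbbp4 and Foxm1, had log2 ratios of 0.01 and -0.13. Of 15 compared genes upstream of the cycle, 3 were called higher by size (4.23% of all genes) and rose in the authors' deposited table (7.00% of all genes). They were Mdm2, the growth factor-responsive Myc (607 against 378 counts, log2 ratio 0.68) and Bmi1 (2995 against 1967, log2 ratio 0.60), a Polycomb protein that represses Cdkn2a. Stat5a (-0.36) and Stat5b (-0.34), transducers of prolactin signals, fell in the authors' deposited table, 2 of the 15 against 6.58% of all genes. The median log2 ratio of the 15 genes was 0.09, and -0.08 without the trends. Genes of this paragraph and the one before were named by size or abundance, or from the authors' calls after their values were seen.

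**Figure D4:**
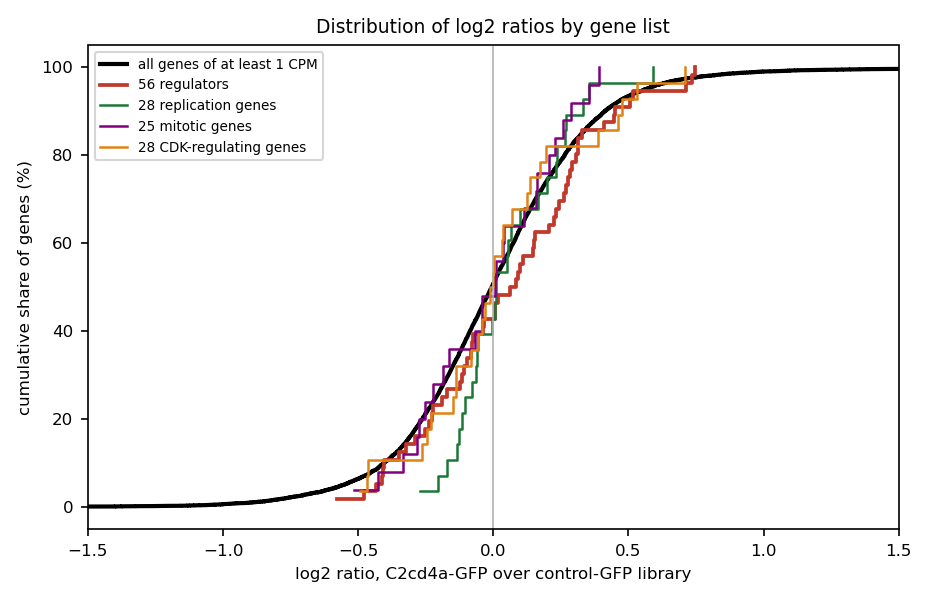
Cumulative share of genes (%) against the log2 ratio of C2cd4a-GFP over Control-GFP for all genes of at least 1 CPM, the 56 regulators, 28 replication genes, 25 mitotic genes and 28 CDK-regulating genes (genes beyond the axis are not drawn). The curves cross the 50% level close to equality, at medians of -0.01, 0.07, 0.01, 0.01 and -0.01.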

How the data were processed

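Gene counts of 2 directional poly-A libraries (42 bp paired reads, per the labels' protocols) were used as deposited. The submitters' processing notes list STAR 2.5.2b, featureCounts, Subread 1.5.2, DESeq2 1.14.1 and the build mm10, with no roles. The strand setting of the counting is not stated in them. The authors' log2 fold changes and p-values, raw and adjusted, are in the same deposited table, in a sheet named for DESeq2. The authors' normalized values, 1 score per gene and condition, were not used for any result, and no source used here says how many libraries lie behind the authors' values. "Rose" and "fell" mean that the authors' adjusted p was under 0.05. The authors' values may include these libraries and are no independent support.

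Counts were scaled with TMM factors (edgeR 4.0.16, R 4.3.3; 1.015 and 0.985) to CPM. Ratios are C2cd4a-GFP over Control-GFP with exact Clopper-Pearson 95% intervals conditional on the summed counts (scipy 1.17.1). They were tried on simulated counts with counting error alone, which cannot show how they fare with spread between libraries. Intervals and the floor of 3 counts cover counting error only. A size call needs a mean of 1 CPM, a ratio of 1.5 and an interval without equality, and compares libraries, not conditions. Every one of the 60 genes is named, and full values go to called genes and to the 2 most abundant per length of each role. GC content came from the longest GENCODE M21 transcript, and trends were lowess curves with a span of 0.3 (statsmodels 0.14.6). Alternatives were DESeq2 1.42.0 size factors, total counts and upper quartile scaling, other filters, equal depth, a prior count, removal of the trends, and other thresholds. The genes and lists were chosen with earlier results of these data known.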

Additional observations from a re-analysis of the deposited data

How the results depend on the processing

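The size call was recomputed under other scalings, filters, depths, prior counts and trends. The 3 genes called higher by size became 0 without the length and GC trends, 9 with a size rule of 25% over the smaller level and 0 with one of 2-fold. Without these trends 380 of 12216 genes in all were called higher and 315 lower. The 0 genes called lower became 1 (Cdkn2d) with upper quartile scaling and 8 with the 25% rule. In the authors' deposited table, 3 regulators rose and 3 fell at an adjusted p under 0.01, and 8 rose and 8 fell under 0.1. The share of all genes called under these other thresholds and scalings is not given, so the counts are no result about the regulators. The median log2 ratio of 0.07 stayed within 0.093, the middle width of a counting interval to either side, under all alternatives. Without the length and GC trends 37 of 56 genes moved beyond their counting interval and 11 changed sign, and all 11 were uncalled: Ccnb1, Ccnl2, Ccny, Cdk4, Cdk7, Cdkn1c, Cdkn2a, Cdkn2b, Cdkn2c, E2f4 and Rbl2. The length trend alone turned Cdk4, Cdkn1c, Cdkn2c, E2f4 and Rbl2. The cause of these moves was not tested. Scaling by total counts changed the sign of Cdkn1c and E2f4, and upper quartile scaling that of Ccnb1 and Ccnl2. With 1 library per group no replicate could be left out, and no paired analysis was possible because each group has 1 library.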
